A study of Rattus norvegicus with 64 samples.

Results

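The deep layers of the entorhinal cortex, layers III to VI together (LDeep), were compared between the medial (MEC) and the lateral (LEC) entorhinal cortex during postnatal maturation, and the genes described are those whose age change differed between the 2 regions. Of the 64 RNA sequencing libraries of the series, the 32 LDeep libraries were used; the other 32 were from layer II (LII). The animals were Long Evans rats with no treatment or genetic change, and the tissue was dissected from brain slices at postnatal day 2 (P2), P9, P23 and P45. MEC and LEC each had 5 LDeep samples at P2, 3 at P23, and 4 at each of P9 and P45. Each sample was a bulk tissue piece that pooled layers III to VI, and the methods describe the dissection, from horizontal sections of both hemispheres, for MEC. The replicates are stated to be biological, and the sources did not state whether samples with the same number in the 2 regions were from the same animal.

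MEC and LEC are the 2 divisions of the cortical gateway to the hippocampus. MEC is known for its spatially tuned neurons such as grid cells, whereas LEC is known for object and context information. Of the layers pooled in LDeep, the deepest carry hippocampal output back to the neocortex. During the first postnatal weeks cortical circuits form synapses, and oligodendrocytes arise from dividing precursors, which carry Pdgfra, and wrap axons in myelin. Myelin is built from a small set of abundant proteins, among them Mbp, Mag and Cnp, and from galactolipids and cholesterol, so the RNAs for these products are a common readout of oligodendrocyte maturation in bulk tissue.

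The interaction was calculated as MEC minus LEC at P23/P45 (mean of both ages) minus MEC minus LEC at P2/P9, on the log2 scale (log fold-change, LFC). A positive LFC means that the age change was more positive in MEC than in LEC. Levels are given as counts scaled to library size (CPM), and an LFC is followed by its standard error and its Benjamini-Hochberg (BH) adjusted p value over all 12144 genes tested.

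Library sizes ranged from 4922946 to 10799821 gene counts (median 7996422) in LDeep. All 6 glutamatergic neuron markers and all 13 deep-layer neuron markers measured had counts in every LDeep library. There were 3 libraries that stood apart from their own groups, with a mean correlation to their group of at most 0.953, whereas the other 29 libraries had at least 0.971. These were MEC P2 replicate 1, MEC P2 replicate 4 and LEC P45 replicate 4. The summed level of the meningeal fibroblast markers was 1161 CPM in MEC P2 replicate 1, and it was between 32.7 and 364 CPM in the other 31 libraries.

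The interaction was significant for 79 of the 12144 genes (0.651%), of which 62 (0.511%) were more positive and 17 (0.14%) more negative in MEC; 1237 genes (10.2%) had an unadjusted p value under 0.05. Mag, Cnp, Ugt8 and Mbp, members of an oligodendrocyte and myelin list, were among the 10 most significant genes, with LFC between 1.38 and 1.99, as were Tspan2 and Gpr37, which were not on the list. The smaller group was headed by genes of other roles, such as the release protein gene Doc2b, the lipase gene Lpl and the muscarinic receptor gene Chrm5. The median LFC over all genes tested was -0.02. When each library was left out in turn, the number of genes with a more positive change in MEC ranged from 41 to 78, with 41 without LEC P23 replicate 1. The number with a more negative change ranged from 8 to 33; it was 8 without LEC P23 replicate 1, 9 without MEC P23 replicate 1, 10 without MEC P23 replicate 3, and 11 without LEC P2 replicate 5, LEC P9 replicate 2 or LEC P23 replicate 2, and it was 26 without LEC P45 replicate 1, 28 without MEC P2 replicate 1 or LEC P45 replicate 2, and 33 without MEC P2 replicate 3. Without all 3 libraries that stood apart, the counts were 107 and 28, and 58 and 14 of the genes above were among them.

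**Figure D1:**
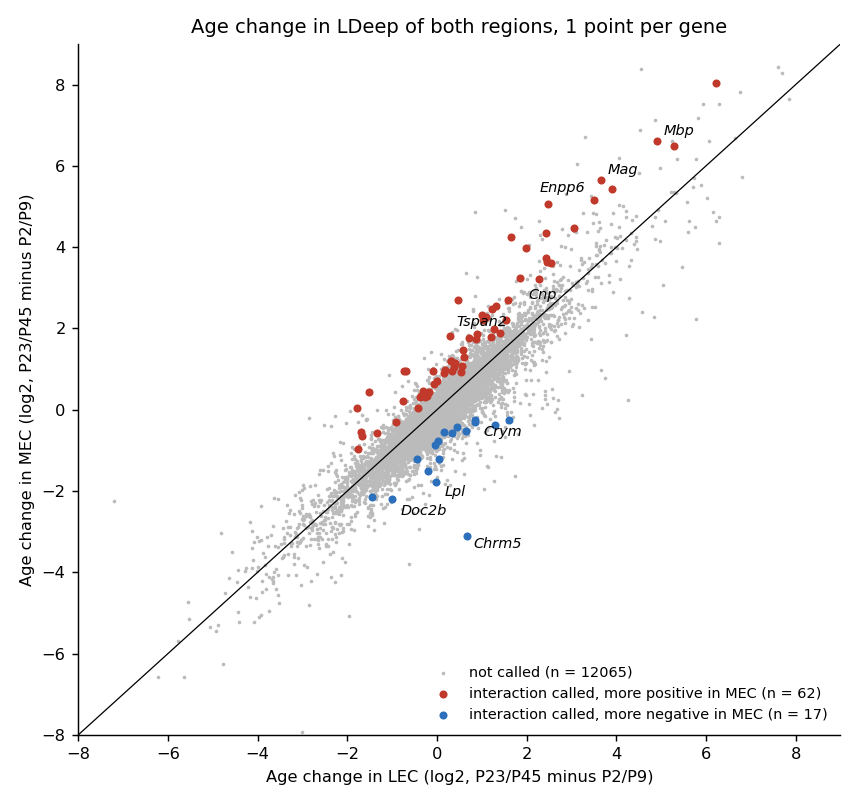
Age change in LDeep of LEC (x axis) and MEC (y axis), both as log2 of P23/P45 over P2/P9, with 1 point for each gene, and 6 genes outside the axes. The 62 red genes lie above the line of equal change and the 17 blue genes below it, while most grey genes follow the line.

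Mag (chr1:89345419-89360733 on rn6) encodes myelin-associated glycoprotein, an adhesion protein of the innermost myelin layer. In LDeep of MEC it was measured at 3.21, 5.71, 5.84, 5.69 and 7.21 CPM at P2, 5.73, 6.47, 4.91 and 7.87 CPM at P9, 479, 323 and 404 CPM at P23 and 196, 190.0, 263 and 225 CPM at P45. In LEC it was measured at 6.46, 4.19, 11.05, 5.999 and 7.59 CPM at P2, 8.96, 8.02, 9.17 and 7.71 CPM at P9, 108, 131 and 122 CPM at P23 and 74.6, 79.01, 66.5 and 101 CPM at P45. The 2 regions overlapped at P2 and at P9, and every MEC sample was above every LEC sample at P23 and P45. The rise from P2/P9 to P23/P45 was 5.65 in MEC and 3.66 in LEC on the log2 scale, and the interaction was 1.99 ± 0.21 (adjusted p = 2.46e-06).

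Cnp (chr10:88490798-88497357 on rn6) encodes the myelin enzyme 2',3'-cyclic nucleotide 3'-phosphodiesterase. At P2 it was at 59.9, 58.1, 55.8, 63.9 and 78.97 CPM in MEC and 70.5, 75.4, 70.3, 101 and 79.1 CPM in LEC, and at P9 at 118, 104, 121 and 75.6 CPM in MEC and 97.6, 129, 116 and 102 CPM in LEC. At P23 it was at 1046, 819 and 1021 CPM in MEC against 368, 400.0 and 483 CPM in LEC, and at P45 at 636, 523, 742 and 525 CPM against 274, 302, 266 and 255 CPM. The regions overlapped at both younger ages and were separate at both older ages, with an interaction of 1.38 ± 0.15 (adjusted p = 3.46e-06).

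The promoters of Mag and Cnp, the 2 most significant genes, are shown because both hold the letters CTGGNAC, where N is any base. These letters were searched for as a sequence of the oligodendrocyte transcription factor MYRF. The sequences were taken from RefSeq (build GRCr8, 250 bases before to 50 after the gene start, 5′ to 3′ on the gene's strand), with the match in capitals.
Mag, chr1:95290995-95291294, minus strand: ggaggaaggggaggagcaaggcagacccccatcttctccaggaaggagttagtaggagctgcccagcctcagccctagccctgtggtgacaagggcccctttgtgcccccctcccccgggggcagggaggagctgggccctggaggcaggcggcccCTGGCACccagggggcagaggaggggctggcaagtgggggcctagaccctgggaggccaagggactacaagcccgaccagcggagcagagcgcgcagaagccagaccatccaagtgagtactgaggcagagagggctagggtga
Cnp, chr10:86011254-86011553, plus strand: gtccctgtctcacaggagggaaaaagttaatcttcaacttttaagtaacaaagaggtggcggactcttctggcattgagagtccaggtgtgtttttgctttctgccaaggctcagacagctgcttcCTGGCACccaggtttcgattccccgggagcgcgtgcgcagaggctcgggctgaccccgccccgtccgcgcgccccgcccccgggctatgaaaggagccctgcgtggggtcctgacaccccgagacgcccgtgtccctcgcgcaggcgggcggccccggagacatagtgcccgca
The match started 94 bases before the gene start in Mag and 124 bases before it in Cnp. The promoters of Tspan2 and Ugt8, next by p value, held no match. Of the 62 genes more positive in MEC, 47 were matched to a promoter by symbol, and 13 of these (27.7%) held CTGGNAC on either strand. The share was 25% (3 of 12) for the genes more negative in MEC, 18% for the 9126 tested genes with a promoter and 17.8% over all 27457 promoters. Of 2 other sets of letters searched on both strands, ACAAAG, which Sox proteins recognise, was in 19.1% of the 47 promoters. It was in 13.1% of those of the tested genes, 16.7% of those of the genes more negative in MEC and 18.3% of all promoters. For GCCCCGCCC, a GC box, the shares in the same order were 34%, 20.5%, 16.7% and 10.3%. These matches describe the letters in the window only; binding was not measured.

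An abundant myelin gene had the same pattern. Mbp, which encodes myelin basic protein, was at 32.8, 36.1, 39.96, 51.8 and 41.9 CPM in MEC and 42.3, 48.5, 45.7, 44.6 and 46.00 CPM in LEC at P2, and at 56.1, 66.7, 66.9 and 25.5 CPM and 55.1, 74.3, 73.1 and 48.4 CPM at P9. At P23 it was at 5696, 4350 and 6177 CPM in MEC and 1553, 1679 and 2541 CPM in LEC, and at P45 at 4193, 3733, 4868 and 2569 CPM and 1517, 1625, 1283 and 978 CPM, with an interaction of 1.70 ± 0.23 (adjusted p = 1.16e-04). All 7 older MEC samples exceeded all 7 older LEC samples, although the lowest of them, MEC P45 replicate 4, was only just above LEC P23 replicate 3.

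For Tspan2, a tetraspanin gene expressed in oligodendrocytes, the regional difference at P2/P9 was significant too. That of Mag was of similar size but not significant (LFC -0.39, adjusted p = 0.21). It was at 44.6, 53.8, 39.96, 40.5 and 43.6 CPM in MEC and 58.1, 57.5, 50.8, 66.7 and 80.9 CPM in LEC at P2, and at 93.98, 93.7, 117 and 104 CPM and 179, 138, 127 and 109 CPM at P9, so that every P9 sample was above every P2 sample. At P23 it was at 345, 274 and 337 CPM in MEC and 104, 128 and 195 CPM in LEC, and at P45 at 192, 174, 193 and 152 CPM and 102, 100.4, 99.4 and 63.3 CPM. Its level was lower in MEC than in LEC at P2/P9 (LFC -0.47, adjusted p = 0.0231) and higher at P23/P45 (LFC 1.06, adjusted p = 5.43e-06), and the interaction was 1.53 ± 0.18 (adjusted p = 9.53e-06).

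Ugt8, the enzyme that makes the myelin lipid galactosylceramide, was at 343, 284 and 323 CPM in MEC and 78.1, 99.9 and 155 CPM in LEC at P23, and at 142, 157, 172 and 123 CPM and 58.99, 76.2, 54.7 and 39.2 CPM at P45, while no P2 or P9 sample of either region was above 24.7 CPM. Its interaction was 1.92 ± 0.23 (adjusted p = 1.26e-05). Gpr37, encoding an orphan receptor found in oligodendrocytes, was at 73.3, 60.95 and 67.3 CPM in MEC and 25.6, 30.2 and 35.5 CPM in LEC at P23, with an interaction of 1.17 ± 0.16 (adjusted p = 1.12e-04). Enpp6, a choline phosphodiesterase gene that marks newly forming oligodendrocytes, was at 20.04, 16.3 and 22.1 CPM in MEC and 8.42, 11.1 and 11.7 CPM in LEC at P23. Its interaction of 2.57 ± 0.49 (adjusted p = 0.0072) rested on only 3 counts in the 5 MEC samples at P2, and with P9 alone as the younger age it was 1.18 and not significant (adjusted p = 0.807).

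**Figure D2:**
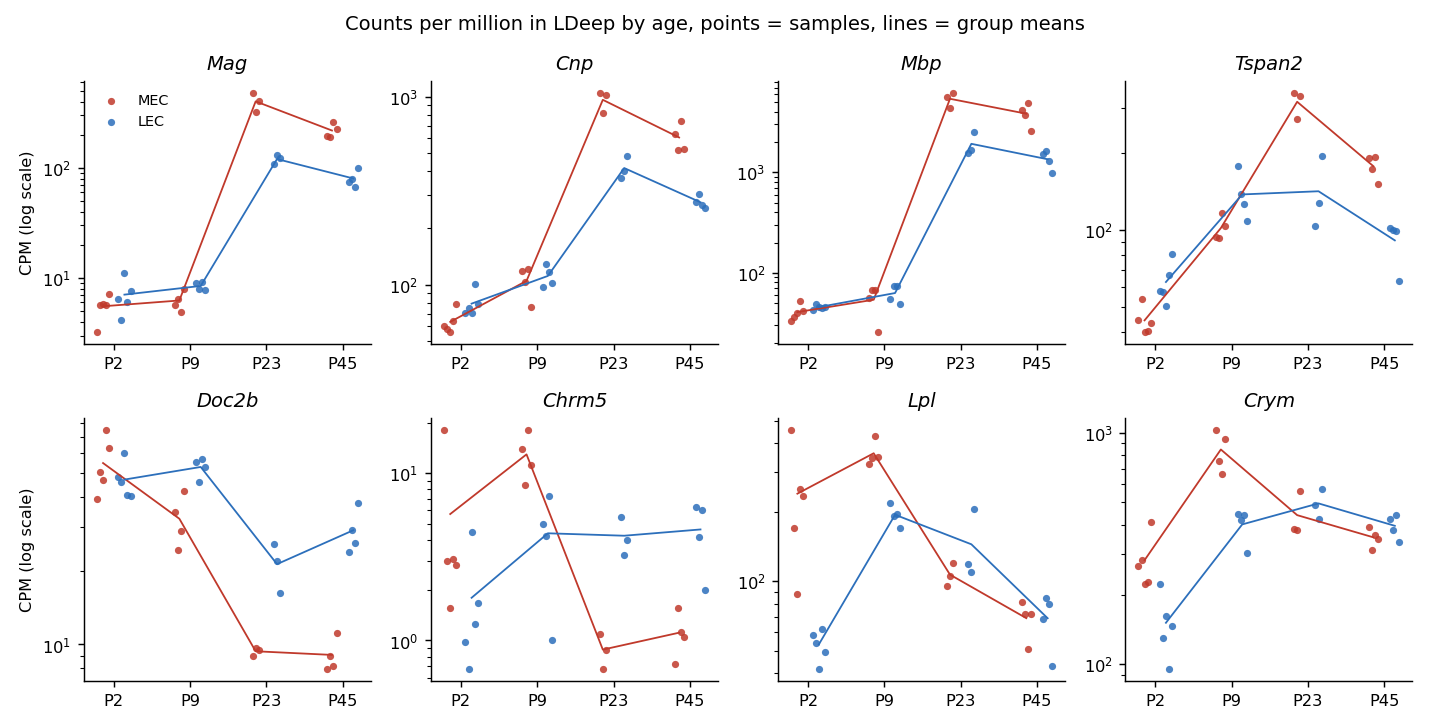
Level in CPM (log scale) of 8 genes in each LDeep sample of the 4 ages, red for MEC and blue for LEC, with lines through the group means. Mag, Cnp and Mbp overlap between the regions at P2 and P9, with lower medians in MEC over these ages. They are higher in MEC at P23 and P45. Doc2b and Chrm5 are lower in MEC at P23 and P45, and Lpl and Crym are higher in MEC mainly at P2 and P9.

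The oligodendrocyte and myelin markers as a whole were taken from a list of 17 genes, all of which were tested. All 17 rose with age in both MEC and LEC, and the interaction was significant for 8 of them (including Mag, Cnp, Ugt8, Mbp, Enpp6 and Tf), all more positive in MEC, against 0.511% of all genes in this direction. The median LFC of the list was 1.42, and the same over the 15 members that had counts in every group, against -0.02 over all genes. The LFC was above 0 for 15 of the 17 and below 0 for Cldn11 (-0.81, adjusted p = 0.806) and for Mobp, which had no count in LEC at P2 or P9. At P23/P45, 15 of the 17 were significantly higher in MEC and none was lower (median LFC 1.41), where 2.18% of all genes were higher. At P2/P9 the median was -0.20 and 1 member, Enpp6, was lower in MEC. The 2 members with no regional call at P23/P45 were Cldn11, a claudin of myelin tight junctions (LFC 1.46, adjusted p = 0.183), and Myrf (LFC 0.26, adjusted p = 0.858). Even so, older Cldn11 levels did not overlap, at 186 to 435 CPM in MEC and 74.4 to 179 CPM in LEC. The highest younger MEC sample of Cldn11 was at 53.4 CPM, where the younger MEC median was 1.20 CPM. The older medians of Myrf were 29.5 CPM in MEC and 15.6 CPM in LEC, and its highest older LEC sample was at 71.5 CPM.

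For some myelin genes the interaction was not measurable, as they were at or near 0 before P23. These genes still enter the counts and the median given above for the 17 members, and Mog also enters the median over 15. Opalin, an oligodendrocyte membrane protein gene, had 1 count over all 18 samples at P2 and P9, in LEC. At P23 it was at 106, 74.2 and 107 CPM in MEC and 24.3, 26.2 and 40.7 CPM in LEC, and at P45 at 74.2, 68.7, 98.02 and 65.1 CPM and 30.05, 29.2, 28.8 and 34.8 CPM. Mog, a protein of the outermost myelin surface, was below 1 CPM in every younger sample and was then at 183, 148 and 204 CPM in MEC and 47.4, 49.9 and 90.3 CPM in LEC at P23. For these genes the regional difference at P23/P45 (LFC 1.49 for Opalin and 1.51 for Mog, adjusted p = 1.74e-06 and 7.01e-07) is the measurement that the counts allow.

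The summed level of the 17 markers ranged from 147 to 196 CPM in MEC and from 169 to 238 CPM in LEC at P2, and from 169 to 363 CPM and 245 to 368 CPM at P9. At P23 it ranged from 12990 to 17373 CPM in MEC and from 4528 to 7676 CPM in LEC, and at P45 from 7529 to 12899 CPM in MEC and from 2793 to 4661 CPM in LEC. The MEC and LEC ranges thus overlapped at both younger ages and were apart at both older ages. How far the other genes with an interaction go with these markers was not tested. In bulk samples, fewer cells of a type and less RNA per cell cannot be told apart.

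Of 7 markers of oligodendrocyte precursors, none was significant (median LFC 0.60), and the smallest adjusted p values were those of the lineage transcription factor genes Olig1, at 0.60 ± 0.17 (adjusted p = 0.0924), and Olig2, at 0.61 ± 0.17 (adjusted p = 0.101). Both genes became significant with DESeq2, with the replicate number as a block and without the 3 libraries that stood apart, and Olig1 with limma voom too (smallest adjusted p = 0.0102 for Olig1 and 0.0193 for Olig2). Olig1 was at 126, 119 and 146 CPM in MEC and 81.1, 86.4 and 86.2 CPM in LEC at P23. Pdgfra, the growth factor receptor of the precursors, was at 139.6, 138 and 114 CPM in MEC and 139, 131 and 144 CPM in LEC at P23, with overlapping regions and an LFC of -0.15 ± 0.21 (adjusted p = 0.859). Of the 7 markers, 2 were significantly higher in MEC at P23/P45, as were 2.18% of all genes.

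**Figure D3:**
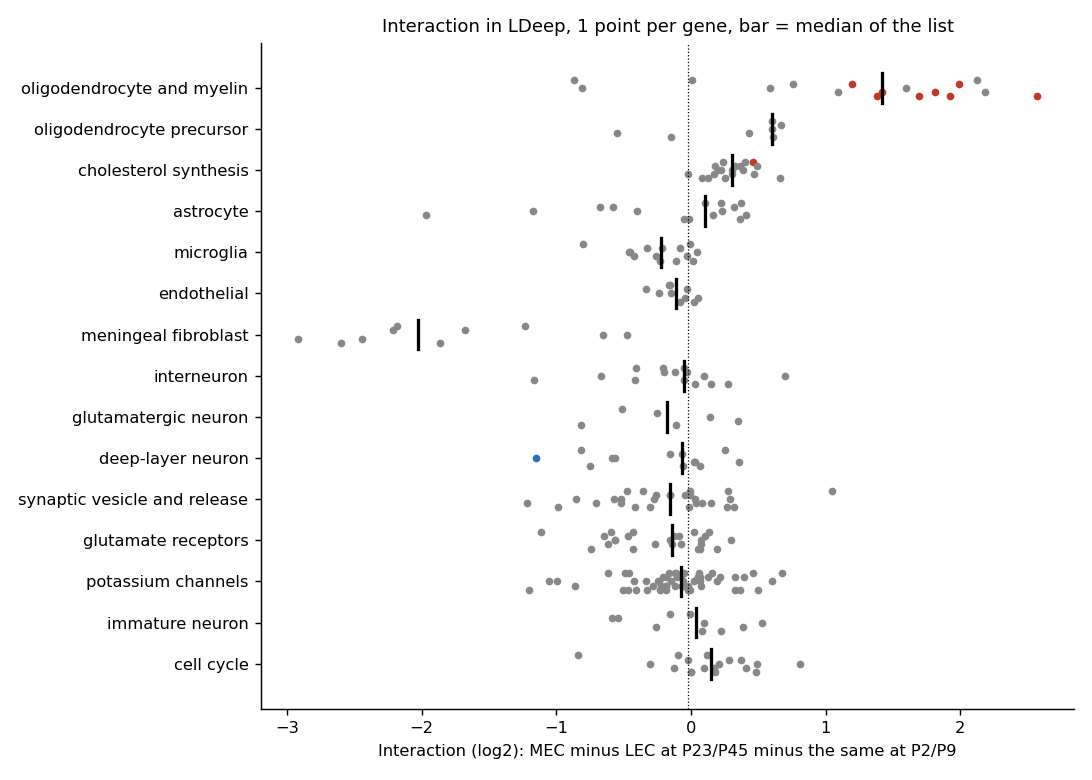
Interaction LFC (x axis) of the members of 15 gene lists, with 1 point for each gene, red or blue where significant, a bar at the median of the list and a dotted line at the median of all genes. The oligodendrocyte and myelin list has the highest median (1.42) of those drawn and 8 red genes; the meningeal fibroblast list has the lowest (-2.03) and no significant gene.

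Of the 62 genes more positive in MEC, 54 were not on the oligodendrocyte list. The list is short, and these 54 include Tspan2 and Gpr37, which are expressed in oligodendrocytes. Absence from the list thus does not place a gene outside these cells. Tcf19, a transcription factor gene, is an example of a gene that fell in LEC: it was at 7.66, 4.19, 4.07, 6.37 and 6.07 CPM at P2 and 1.603, 1.55 and 0.4098 CPM at P23 in LEC, and at 6.15, 4.59, 3.37, 4.15 and 3.07 CPM and 3.68, 4.31 and 4.49 CPM in MEC. At P45 it was at 7.95, 5.41, 5.97 and 6.83 CPM in MEC and 2.21, 2.18, 1.51 and 1.99 CPM in LEC, and its interaction was 1.95 ± 0.30 (adjusted p = 5.99e-04). St6galnac3, a sialyltransferase gene, was within 21.7 to 24.3 CPM in all 8 samples at P9, and at P45 it was at 36.96, 33.7, 35.8 and 32.8 CPM in MEC and 22.2, 21.00, 18.9 and 14.8 CPM in LEC, an interaction of 0.71 ± 0.11 (adjusted p = 4.56e-04). The uncharacterised gene LOC361016 was at 36.2, 31.8, 39.1 and 22.98 CPM in MEC and 18.2, 18.6, 14.1 and 17.1 CPM in LEC at P45, an interaction of 1.24 ± 0.18 (adjusted p = 2.40e-04).

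The largest positive LFC outside the myelin list belonged to genes of low level at the younger ages. Pnlip, which encodes a triglyceride lipase, had an interaction of 2.60 ± 0.48 (adjusted p = 0.00439) and was at 44.02, 38.3 and 46.9 CPM in MEC and 17.8, 10.9 and 23.5 CPM in LEC at P23. It was below 1.4 CPM in every MEC sample at P2, and with P9 alone as the younger age the LFC was 1.30 and not significant (adjusted p = 0.654). Slc45a3, a sugar transporter gene, was at 4.23, 4.99 and 5.04 CPM in MEC and 1.202, 0.986 and 1.503 CPM in LEC at P23, with an interaction of 2.25 ± 0.45 (adjusted p = 0.0109), or 1.38 with P2 alone as the younger age (adjusted p = 0.158). Prima1, whose product anchors acetylcholinesterase in the membrane, was at 8.46, 9.05, 8.33 and 7.49 CPM in MEC and 4.05, 3.88, 3.22 and 9.52 CPM in LEC at P45; LEC P45 replicate 4, one of the libraries that stood apart, was above all 4 MEC samples, and the interaction was 2.00 ± 0.43 (adjusted p = 0.0161), or 1.498 with P9 alone (adjusted p = 0.628).

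A few further genes were picked out after their values were seen, for their known place in myelin lipids and the oligodendrocyte surface. Gal3st1, which sulfates galactosylceramide, had an interaction of 0.88 ± 0.21 (adjusted p = 0.0463), Cers2, a ceramide synthase for very long acyl chains, of 0.80 ± 0.14 (adjusted p = 0.00375), and Gltp, a glycolipid transfer protein, of 0.67 ± 0.15 (adjusted p = 0.0225). The Gal3st1 call was lost with the replicate number as a block (adjusted p = 0.0696). The sphingosine-1-phosphate receptor gene S1pr5 had an interaction of 1.52 ± 0.31 (adjusted p = 0.012). Each was higher in MEC at P23/P45.

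Cholesterol synthesis genes, which supply a main myelin lipid, had small positive values. The interaction was significant for 1 of 19, the sterol demethylase gene Cyp51, at 0.46 ± 0.11 (adjusted p = 0.0498); 18 of 19 were above 0, and the median was 0.30. Cyp51 was at 258, 253, 272 and 239.5 CPM in MEC and 218, 205, 204 and 166 CPM in LEC at P45, and it fell in LEC (-0.42, adjusted p = 4.46e-05) with an age change of 0.04 in MEC (adjusted p = 0.663). This call was close to the threshold and was lost in 26 of the 32 fits that left out 1 library (adjusted p up to 0.114); it held without MEC P2 replicate 1 or 2, LEC P2 replicate 3, MEC P9 replicate 4, MEC P45 replicate 4 or LEC P45 replicate 1.

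Doc2b (chr10:63927658-63952881 on rn6), a calcium sensor of neurotransmitter release, had the smallest p value of the 17 genes more negative in MEC. It was at 38.98, 50.5, 46.6, 75.00 and 63.1 CPM in MEC and 48.1, 45.97, 59.99, 40.7 and 40.1 CPM in LEC at P2, and at 34.6, 24.3, 28.98 and 42.3 CPM and 55.6, 45.9, 57.02 and 53.00 CPM at P9. At P23 it was at 8.995, 9.63 and 9.52 CPM in MEC and 25.6, 21.8 and 16.3 CPM in LEC, and at P45 at 7.95, 8.95, 8.21 and 11.2 CPM and 23.8, 29.2, 25.9 and 37.9 CPM. The regions overlapped at P2, and every MEC sample was below every LEC sample at P9, P23 and P45. The age change was -2.19 in MEC and -1.01 in LEC, an interaction of -1.19 ± 0.20 (adjusted p = 0.00134). With P9 alone as the younger age it was -0.73 and not significant (adjusted p = 0.405).

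Chrm5, the M5 muscarinic acetylcholine receptor gene, had the most negative LFC, -3.76 ± 0.64 (adjusted p = 0.00193). At P9 it was at 13.9, 8.52, 18.2 and 11.2 CPM in MEC and 4.98, 4.19, 7.31 and 0.9999 CPM in LEC. At P23 the order was the opposite, with 1.09, 0.6798 and 0.876 CPM in MEC and 5.48, 3.24 and 3.96 CPM in LEC, and at P45 it was at 0.723, 1.56, 1.12 and 1.05 CPM and 6.26, 4.13, 6.05 and 1.99 CPM. At P2 the MEC samples were at 18.02, 2.98, 1.57, 3.06 and 2.84 CPM, the first of them being the library with the high meningeal markers, and without it the LFC was -3.20. Chrm5 fell in MEC (-3.10, adjusted p = 2.10e-06), and its age change in LEC was 0.66 (adjusted p = 0.173).

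Lpl (lipoprotein lipase, which releases fatty acids from lipoproteins) and Crym (a binding protein of thyroid hormone and a deep-layer marker) had the other form of interaction, in which an early regional difference was not called later. Lpl was at 456, 171, 87.8, 252 and 235 CPM in MEC and 58.5, 54.2, 41.6, 61.99 and 49.3 CPM in LEC at P2, and at 323, 343, 428 and 348 CPM and 219.8, 192, 196 and 171 CPM at P9. At P45 it was at 81.7, 72.3, 50.8 and 72.1 CPM in MEC and 68.9, 84.8, 79.8 and 42.96 CPM in LEC. Every MEC sample was above every LEC sample at both younger ages and the regions overlapped at P23 and P45. MEC minus LEC was 1.53 at P2/P9 (adjusted p = 1.66e-05) and -0.22 at P23/P45 (adjusted p = 0.776). The interaction was -1.75 ± 0.29 (adjusted p = 0.00156), and -1.57 without MEC P2 replicate 1, whose value of 456 CPM was the highest. With P9 alone as the younger age it was -1.11 and not significant (adjusted p = 0.404).

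Crym was at 1031, 755, 662 and 939 CPM in MEC and 445, 419.7, 439 and 303 CPM in LEC at P9, and at 390.2, 313, 363 and 347 CPM and 424, 380.2, 443 and 338 CPM at P45. It rose with age in LEC (0.85, adjusted p = 1.03e-05) and had an age change of -0.31 in MEC (adjusted p = 0.0671), with an interaction of -1.15 ± 0.21 (adjusted p = 0.00413). Crym was the only one of the 13 deep-layer markers with a significant interaction, and their median was -0.07. At P2/P9, 6 of the 13 were significantly higher in MEC and 2 lower, as were 1.48% and 1.8% of all genes. At P23/P45, 1 was higher and 2 lower, as were 2.18% and 2.06% of all genes. Their summed level overlapped between the regions at P2, P23 and P45. At P9 it was 2137 to 2984 CPM in MEC and 1337 to 1761 CPM in LEC. Syt4, a synaptotagmin of secretory vesicles, was likewise higher in MEC at P9, at 452, 686, 779 and 648 CPM against 419.8, 345, 391.6 and 402 CPM in LEC, and at P23 the samples were at 369, 421 and 339 CPM and 369, 366 and 377 CPM, an interaction of -0.82 ± 0.18 (adjusted p = 0.0245). The Syt4 call was lost without MEC P23 replicate 1, MEC P23 replicate 3 or LEC P23 replicate 1 (adjusted p up to 0.0656).

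Several further genes had their larger regional difference at the older ages, with lower levels in MEC. Ngb, encoding the neuronal oxygen-binding protein neuroglobin, was at 9.92, 11.1, 12.5, 7.65 and 10.3 CPM in MEC and 9.96, 9.87, 11.98, 7.498 and 7.44 CPM in LEC at P2. At P45 it was at 8.67, 5.31, 8.21 and 5.25 CPM in MEC and 18.4, 12.7, 15.6 and 15.5 CPM in LEC, an interaction of -1.24 ± 0.23 (adjusted p = 0.00439). Rsph10b, a homologue of a radial spoke protein of cilia, was at 14.04, 14.8 and 11.6 CPM in MEC and 24.4, 24.4 and 23.4 CPM in LEC at P23, an interaction of -0.85 ± 0.16 (adjusted p = 0.00422). Palmd, which encodes the cytosolic protein palmdelphin, was at 13.4, 16.96, 13.3 and 14.4 CPM in MEC and 31.2, 23.4, 31.8 and 41.6 CPM in LEC at P45, an interaction of -0.80 ± 0.17 (adjusted p = 0.0168). Its MEC samples were below its LEC samples at P9 as well, and the call was lost without LEC P23 replicate 1 (adjusted p = 0.065). Ptpn14, a tyrosine phosphatase gene, had an interaction of -1.67 ± 0.39 (adjusted p = 0.0354) and was at 4.03, 5.31, 3.98 and 5.38 CPM in MEC and 12.6, 10.1, 14.00 and 37.9 CPM in LEC at P45, the highest value being that of LEC P45 replicate 4. Without this library the LFC was -1.38, and without all 3 libraries that stood apart it was -1.07, both still called. The call was lost in 11 of the 32 fits that left out 1 library: MEC P9 replicates 1 and 2, LEC P9 replicates 1 and 2, LEC P2 replicate 5, MEC P23 replicates 1 and 3, LEC P23 replicates 1 and 2, and MEC P45 replicates 1 and 3 (adjusted p up to 0.0885).

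The remaining 3 genes named by rank in this direction were Fam101a, Lgals3bp and Wnt9b. Fam101a, encoding an actin regulator, was at 1.64, 1.13 and 1.75 CPM in MEC and 2.81, 2.396 and 2.32 CPM in LEC at P23, an interaction of -1.31 ± 0.28 (adjusted p = 0.0155). Lgals3bp, encoding a secreted galectin-binding protein, was at 7.02, 6.87, 6.47 and 6.44 CPM in MEC and 10.3, 10.3, 16.5 and 17.5 CPM in LEC at P45, an interaction of -0.92 ± 0.20 (adjusted p = 0.0163). For both genes every MEC sample was below every LEC sample at P23 and at P45. Wnt9b, a Wnt ligand gene, was at most 3.78 CPM in any sample, with an interaction of -1.86 ± 0.43 (adjusted p = 0.0327). It rose in LEC (1.61, adjusted p = 3.95e-05) and had an age change of -0.25 in MEC (adjusted p = 0.47). The Wnt9b call was lost in 10 of the 32 fits, without LEC P2 replicate 4, MEC P9 replicate 1, LEC P9 replicates 1, 2 or 3, MEC P23 replicate 1, LEC P23 replicates 1 or 2, MEC P45 replicate 2 or LEC P45 replicate 3 (adjusted p up to 0.0849).

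Of the 17 genes, 2 (Chrm5 and Crym) were also significant with P9 alone as the younger age. Under this setting the LFC of Palmd was -0.43 (adjusted p = 1.00), that of Lgals3bp -0.53 (adjusted p = 0.926) and that of Ptpn14 -1.01 (adjusted p = 0.993). Of the 62 genes, 20 remained significant with P9 alone, among them Mag, Cnp, Tspan2, Ugt8, Gpr37 and Mbp.

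The time course of the regional difference was read from the same fit for all genes with a significant interaction. Among the 62 more positive in MEC, the median difference of MEC minus LEC was -0.19 for P2 and -0.16 for P9, and 0.85 for P23 and 0.74 for P45. Among the 17 more negative in MEC it was 0.47 and -0.05 at the younger 2 ages and -0.83 and -1.04 at the older 2, and over all genes the median was within 0.02 of 0 at each age. The regional difference was larger at P23/P45 than at P2/P9 for 54 of the 62 and 12 of the 17 genes. At P23/P45, 28 of the 62 had all 7 MEC samples above all 7 LEC samples (1.31% of all genes), and 9 of the 17 had all MEC samples below (1.02% of all genes). At P2/P9 only Lrrn1, a leucine-rich repeat neuronal protein gene picked out for this and among the 62, had regions that did not overlap, with MEC below LEC as in 0.0659% of all genes, while 0.0247% had MEC above. With the test of the regional difference, 55 of the 62 were higher in MEC at P23/P45 and 12 of the 17 lower (2.18% and 2.06% of all genes), and 9 of the 62 were lower in MEC at P2/P9 and 5 of the 17 higher (1.8% and 1.48% of all genes). The choice of the genes by the interaction fixes part of this pattern, and these counts describe it.

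**Figure D4:**
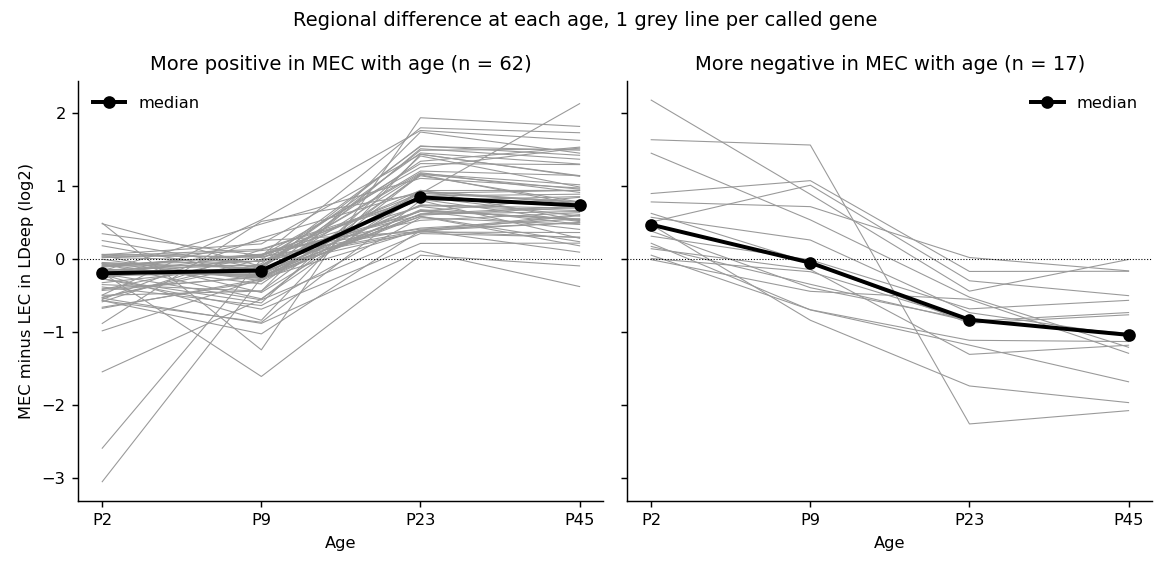
MEC minus LEC in LDeep (log2, y axis) at each of the 4 ages, with a grey line for each gene and the median in black, for the 62 genes more positive in MEC (left) and the 17 more negative (right). The medians move from -0.16 at P9 to 0.85 at P23 on the left and from -0.05 to -0.83 on the right.

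By sign, 43 of the 62 genes had an increase with age in MEC and in LEC, 14 an increase in MEC and a decrease in LEC, and 5 a decrease in both. With the test of each age change, 54 rose in MEC and 39 in LEC, where 32.2% and 32.9% of all genes rose, and 5 fell in MEC and 16 in LEC. The 17 genes were split into 11 with a decrease in MEC and an increase in LEC and 6 with a decrease in both. With the test, 13 of them fell in MEC and 3 in LEC, where 34.2% and 32% of all genes fell, and 7 rose in LEC.

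Apart from Crym, no member of the neuronal, astrocyte or microglia lists had a significant interaction, although many of their genes changed with age. Of 38 gene lists examined, 35 had no significant gene. None of 15 astrocyte markers (median LFC 0.11), 14 microglia markers (-0.22), 15 interneuron markers (-0.05) or 6 glutamatergic neuron markers (-0.18) was called. The same was true of 28 genes of synaptic vesicles and release (median -0.16), 25 glutamate receptor genes (-0.14), 15 GABA-A receptor subunit genes (-0.14) and 59 potassium channel genes (-0.08). Of the 28 release genes, 20 rose with age in MEC and 23 in LEC, and of the 59 potassium channel genes 41 and 43, where 32.2% and 32.9% of all genes rose. The smallest adjusted p value in these lists was that of the AMPA receptor gene Gria1, at -0.43 ± 0.12 (adjusted p = 0.0874), and a p value above the threshold does not show that the regions changed alike.

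Respiratory chain genes were above 0 in all 24 cases, but with small values (0.03 to 0.22, median 0.11) and no call. Markers of neighbouring tissue, as a check of the dissection, gave no call among 6 hippocampal (median 0.51), 7 striatal and amygdalar (0.03) and 6 claustral and endopiriform genes (-0.04). At P23/P45, 1 of the hippocampal genes, Lct, was higher in MEC (LFC 2.30, adjusted p = 2.61e-04), 1 of the striatal and amygdalar genes, Penk, was lower (-1.77), and of the claustral and endopiriform genes Lxn (0.74) and Nr4a2 (0.79) were higher and Gnb4 (-0.49) lower in MEC; these were named for their calls after the values were seen.

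The meningeal fibroblast list had a median LFC of -2.03 with no significant gene among 10 tested. The 10 values ranged from -2.92 to -0.47. Without MEC P2 replicate 1 the median was -0.18, with 8 of 10 values below 0, and without MEC P9 replicate 3 it was -0.72. In the other 30 fits that left out 1 library it was between -2.29 and -1.75. At P9 the summed level of these markers ranged from 131 to 364 CPM in MEC and from 61.7 to 132 CPM in LEC. Without MEC P2 replicate 1, 28 genes had a significantly more negative interaction in MEC in place of 17, and 16 of the 17 were among them.

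The same interaction was calculated in LII, from a fit of all 64 samples, to set the LDeep values beside those of the neighbouring layer. In this fit, 59 of the 62 genes and all 17 genes had the same sign in LII, and 19 of the 62 (0.879% of all genes) and 8 of the 17 (1.28% of all genes) were significant there with that sign. The share with the same sign over all genes was not calculated, and this fit had no term for the animal. The median LFC of the 62 was 1.00 in LDeep and 0.49 in LII, and that of the 17 was -1.15 and -1.01. The genes were chosen on their LDeep values, which favours larger values in LDeep. Mag had an LFC of 1.99 in LDeep and 2.18 in LII, with a layer difference of -0.19 ± 0.58 (adjusted p = 0.996). For Mbp the values were 1.70 and 2.73, with a layer difference of -1.03 ± 0.56 (adjusted p = 0.791).

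None of the 79 genes had a significant layer difference. The smallest p value among them, for which it was picked out, was that of March8, encoding a membrane-bound ubiquitin ligase, with an LFC of 0.58 in LDeep and -0.03 in LII and a layer difference of 0.61 ± 0.13 (adjusted p = 0.0991). At an unadjusted p value under 0.05, 17 of the 62 and 8 of the 17 differed between layers, where 6.45% of all genes did, but the genes were chosen on the LDeep values that enter this difference. When 1 replicate number was left out, March8 was called higher in LDeep without P2 replicate 1 or 2, and none of the 79 genes was called in the other 14 fits; without P2 replicate 5, 1 gene that was not among the 79 was called higher in LDeep. Over all 12521 genes tested, the layer difference was significant for 1 gene (0.00799%), Rspo3, which encodes a secreted enhancer of Wnt signalling (layer difference -2.13 ± 0.40, adjusted p = 0.0302). Rspo3 was not one of the 79 genes: its LFC was -0.44 in LDeep (adjusted p = 0.562) and 1.69 in LII (adjusted p = 2.58e-04). The Rspo3 call was lost in 9 of the 16 fits that left out 1 replicate number: P9 replicates 1, 2 and 4, all P23 replicates, and P45 replicates 1, 2 and 4 (adjusted p up to 0.270).

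**Figure D5:**
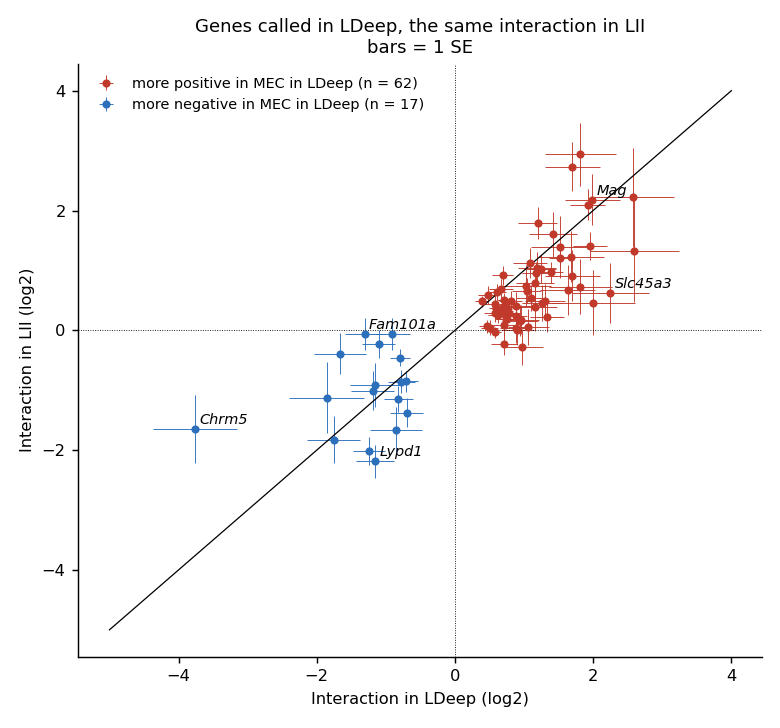
Interaction LFC in LDeep (x axis) and in LII (y axis) from the fit of both layers, for the 62 genes more positive (red) and the 17 more negative (blue) in MEC in LDeep, with bars of 1 standard error and the line of equal values. Mag lies close to the line and Slc45a3 below it, and none of the 79 genes differed significantly between layers.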

How the data were processed

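The authors extracted total RNA from the dissected layers, prepared Ribo-Zero libraries and sequenced them in pairs. Per the labels, reads were processed with bcl2fastq 1.8.4, trimmed with Trimmomatic 0.33, aligned to rn6 with STAR 2.4.0, and counted over RefSeq exons with featureCounts of Subread 1.4.6-p1. The deposited values are raw counts per gene for 17260 genes and were used as they are. Depth limits precision for genes of a few CPM, and the p values measure the spread between samples.

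Genes with low counts were removed with filterByExpr, libraries were scaled by TMM, and the interaction was tested with the edgeR (4.0.16, R 4.3.3) quasi-likelihood test over 8 groups of LDeep samples with BH adjustment (threshold 0.05). The layer difference was tested in the same way over all 64 samples, with no term for the animal. For its miRNA samples, the paper states that the number identifies LII and LDeep samples of 1 animal. Only the replicate block, an alternative, takes the number into account. CPM used the TMM library sizes. Standard errors were the absolute LFC divided by the square root of the F statistic. Alternatives were limma voom (3.58.1) with quantile normalisation, DESeq2 (1.42.0), RLE scaling, no filter, all samples in 1 fit, a replicate block, single ages, a minimum absolute LFC of 0.5 and leaving out libraries.

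No replicate pair was a duplicate: over 50 pairs, the chi-square per degree of freedom was 5.23 or more. Named genes had a median of at least 1 CPM in 1 group and were, for each direction, the 10 with the smallest p and the 5 with the largest LFC, plus up to 4 significant members of each gene list, or up to 2 with the smallest p. The samples, gene lists and contrast were chosen with earlier results of these data known. Results for some genes are not reported here.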

Additional observations from a re-analysis of the deposited data

Results flagged for a closer look

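Among the genes named, single samples lay far from the others of their group (Dixon's test on log2 CPM) in 11 of 180 sets of 4 or 5 LDeep samples, and chance flags about 1 in 20. The high values were Chrm5 in MEC P2 replicate 1 (18.02 CPM, the others 1.57 to 3.06), Pnlip in MEC P2 replicate 4 (1.31 CPM, the others 0.112 to 0.248) and Palmd in LEC P2 replicate 3 (36.6 CPM, the others 24.5 to 27.5). In MEC the low values were LOC361016 in P9 replicate 2 (3.94 CPM), Enpp6 in P9 replicate 4 (0.299 CPM) and Slc45a3 in P45 replicate 3 (2.36 CPM). In LEC they were Crym in P9 replicate 4 (303 CPM), Ngb (9.70 CPM) and Cyp51 (299 CPM) in P9 replicate 3, and Tspan2 (63.3 CPM) and Pnlip (2.44 CPM) in P45 replicate 4. The interaction of Rspo3 differed between LDeep and LII by -2.13, as tested by the layer difference.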

How the results depend on the processing

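The counts of genes with a more positive and more negative interaction in MEC were 62 and 17. They rose to 115 and 48 with DESeq2 and to 107 and 28 without the 3 libraries that stood apart, an alternative chosen after seeing the data. With P2 alone as the younger age the more negative count was 58, and with P9 alone the counts were 24 and 5 (20 and 2 shared), with 4 oligodendrocyte list members called in place of 8. With P23 alone as the older age they were 14 and 1, with 5 list members called, and with P45 alone 19 and 10; a single age uses fewer samples. Leaving out 1 library gave 41 to 78, 8 to 33 and 7 to 10 list members. Limma voom (70 and 17), RLE scaling (61 and 17), no filter (57 and 16) and all 64 samples in 1 fit (57 and 15) stayed within 1.5 times of these counts, although only 44 and 10 of the genes were shared with the fit of 64 samples, where of the genes named Prima1, Doc2b, Crym, Rsph10b, Syt4, Lgals3bp and Wnt9b, among others, were no longer significant. The genes named by rank, Cyp51, Olig1 and Olig2, and Rspo3 for the layer difference, kept their direction in every alternative. Among these, Mag, Cnp, Tspan2, Ugt8, Gpr37, Mbp, LOC361016 and Tcf19 were significant in all of them. The direction of the other genes in the text was not followed through all alternatives. The layer difference was significant for 0 to 1 genes in each direction when 1 replicate number was left out, and Rspo3 lost significance in 9 of 16 such fits, namely P9 replicates 1, 2 and 4, each P23 replicate and P45 replicates 1, 2 and 4 (adjusted p up to 0.270).

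The replicate number as a block (pairing MEC and LEC samples of the same age and number) gave 81 and 24 genes, of which 56 and 14 were the same genes as without it, and 0 and 1 genes for the layer difference. Calls lost under the block were those of Dck, Gal3st1, Map6d1, Nde1, Ppapdc2 and Ubl7 and of Lypd1, Pnck and Wnt9b. The correlation of deviations in same-numbered samples ranged from -0.16 to 0.38 over 16 pairs, with 9 above 0.1. All 7 pairs at P23 and P45 were above 0.1 (0.146 to 0.308) and each was best with its own number, against 2 of 9 at P2 and P9, which is a hint of pairing at the older ages from the data; the labels do not state it. Genes of under 1 CPM at P2/P9, such as Opalin, Mobp and Mog, are limited by depth.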
